A study of Mus musculus with 6 samples.

Results

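The receptor genes Mrgprd, Lpar3, P2rx3, Mrgpra3, Mrgprb4, Mrgprx1, Il31ra, Osmr, Cysltr2 and Htr1f were followed through the neuron classes of the dorsal root ganglion. They were taken by name, and all 10 were found among the 55357 genes of the ganglion table. The data were 1 droplet library of lumbar dorsal root ganglia from C57BL/6 mice at P14, pooled from 4 males and 4 females, and 5 libraries of sciatic nerve from mice of the same strain at P0, P7, P14, P28 and P60, pooled from 22, 21, 18, 15 and 13 animals of both sexes. No other allele and no agent is named for any group. Every group was 1 library of pooled animals, so no value had a replicate and no difference between classes or libraries was tested. The intervals are exact 95% intervals and cover counting error only. The sample title calls the ganglion barcodes cells and the design text calls them nuclei. Their median mitochondrial share was 0.0653%, against 2.31% to 3.06% in the nerve libraries, and they are called nuclei here.

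Itch and pain begin in unmyelinated sensory neurons whose endings carry receptors for mediators released by skin and immune cells. In mice these neurons are commonly sorted into a large non-peptidergic class marked by Mrgprd (NP1), a small class marked by Mrgpra3 or Mrgprb4 (NP2), and a class that makes the peptides Nppb and Sst and carries the interleukin receptor chains Il31ra and Osmr (NP3). Peptidergic nociceptors (PEP), Trpm8 cold-sensing neurons and Th low-threshold mechanoreceptors (cLTMR) are other unmyelinated or thinly myelinated classes of the same ganglia.

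Of 5871 ganglion barcodes with 20845972 unique molecular identifiers (UMIs), 5273 nuclei with a median of 1978 UMIs remained after filtering and removal of likely doublets. Although the sample is labelled as neurons, 1161 nuclei (22.0%) formed neuron-like clusters and 2406 (45.6%) were satellite glia. Between 10 and 19 barcodes of the ganglion library also occurred in each nerve library. The 10 receptor genes were kept out of the clustering and out of the markers. The neurons fell into 269 NP1-like, 111 NP3-like, 198 PEP-like, 101 cold-like, 131 cLTMR-like and 100 large-fibre (NF-like) nuclei, and 195 neurons that stayed unnamed. A cluster of 30 nuclei led by Agtr1b scored highest for the NP2 markers, at 0.63 with a margin of 0.166 over the next class, and a cluster of 26 nuclei led by Col7a1 scored highest for the NP1 markers with a margin of 0.429. A name needed a score of 0.75 and a margin of 0.5. The Agtr1b cluster missed both and the Col7a1 cluster missed the margin, so both are called by their leading genes, which were picked after the clusters were seen. Median UMIs were 6176 in NP1-like, 11454.5 in Agtr1b, 16718 in Col7a1, 8844 in NP3-like and 1870.5 in satellite glia nuclei. Shares of nuclei with a UMI are therefore given after every nucleus was thinned to 2000 UMIs, which left 811 neurons and 1112 satellite glia, and the share in satellite glia is given as the background. Levels are given as CPM, the UMIs of a gene per 1000000 UMIs of the class. Summed satellite glia markers lay between 817 and 1110 CPM in all named classes and both small clusters except NF-like nuclei (1510), against 11600 in satellite glia, and their part in the receptor values was not tested.

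The receptor genes separated into a group highest in NP1-like nuclei (Mrgprd, Lpar3, P2rx3), a group highest in the Agtr1b and Col7a1 clusters (Mrgpra3, Mrgprb4, Mrgprx1) and a group highest in NP3-like nuclei (Il31ra, Osmr, Cysltr2, Htr1f). A gene was called high in a class when its level there, in CPM, was at least 4 times that of all other neurons. Only genes with at least 20 UMIs over neurons, the UMIs of the class itself included, were tested. Of the 10 genes 9 had that many UMIs, and the exception was Mrgprb4 with 8. All 9 were called in at least 1 class (90% of the 10 genes), against 2261 of the 15901 genes tested (14.2%). Several of the 10 are known markers of these classes, and all were chosen with earlier results of these data known. The contrast is therefore a description and not a test. The calls were 3 in NP1-like nuclei, where 1.35% of all genes tested were called, 2 in the Agtr1b cluster (0.981%), 2 in the Col7a1 cluster (1.49%) and 4 in NP3-like nuclei (1.84%). No receptor gene of the 10 was called in PEP-like (2.15% of genes called), cold-like (1.69%), cLTMR-like (1.74%) or NF-like nuclei (4.14%).

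**Figure D1:**
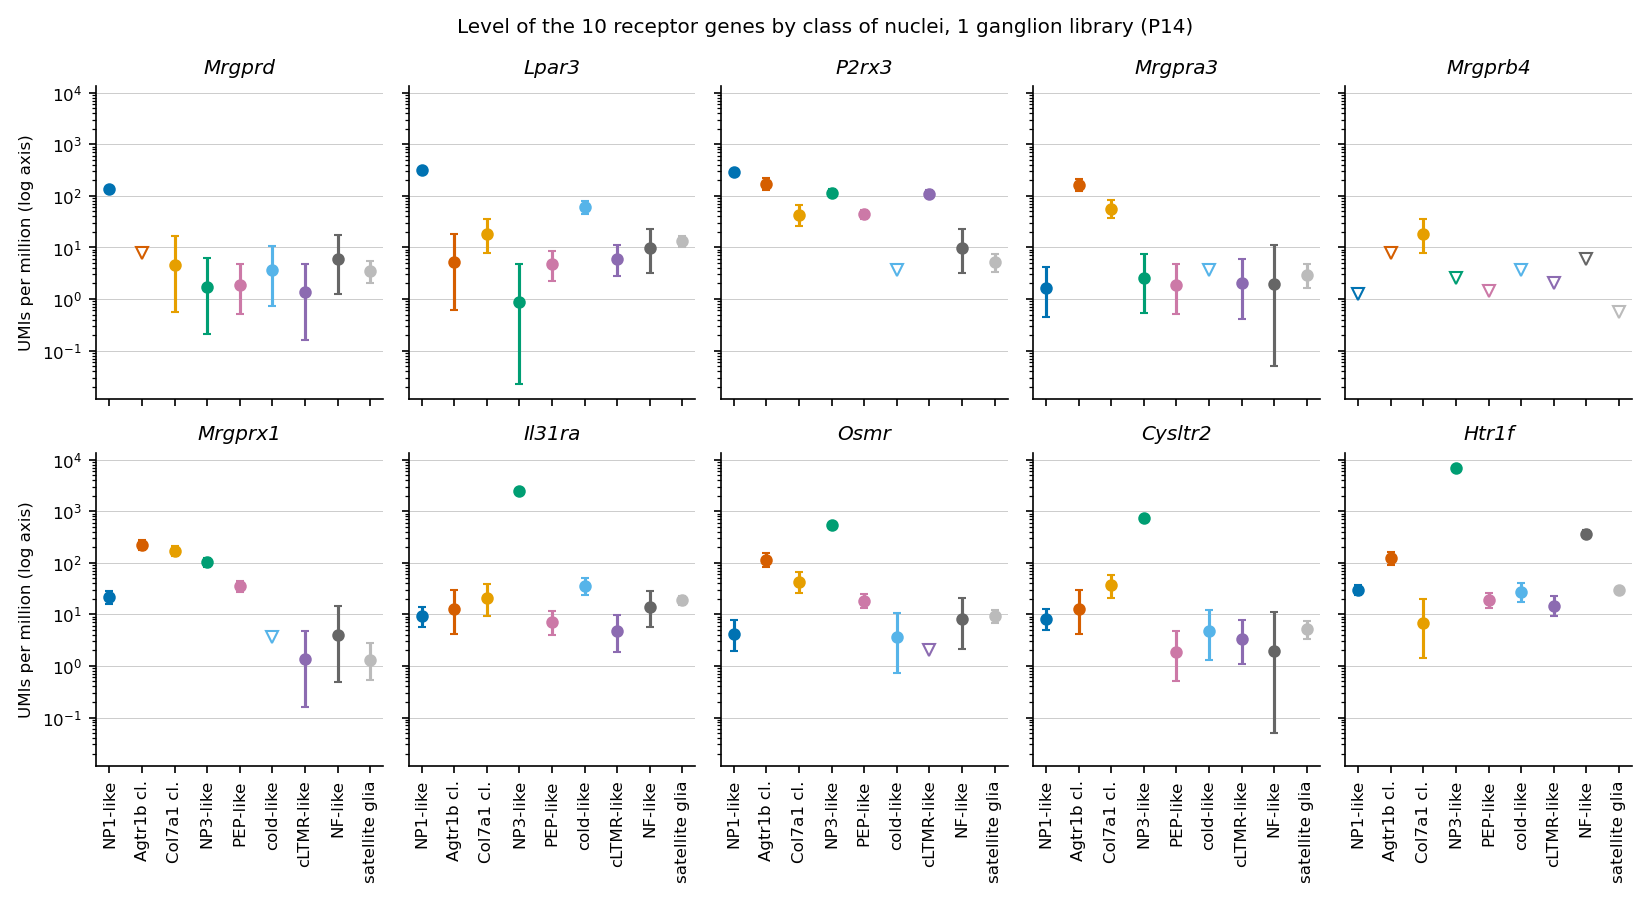
Level of each receptor gene in 8 groups of neurons and in satellite glia of the P14 ganglion library, in CPM on a log axis. Points are class sums, bars are exact 95% Poisson intervals and open triangles mark the limit that 0 UMIs allows. Mrgprd, Lpar3 and P2rx3 were highest in NP1-like nuclei (135, 314 and 292), and Il31ra, Osmr, Cysltr2 and Htr1f in NP3-like nuclei (2460, 542, 754 and 7050).

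Mrgprd, the beta-alanine receptor that defines the NP1 class, reached 135 CPM in NP1-like nuclei (interval 120 to 150, 324 UMIs) and no more than 5.98 in any other named class or small cluster, with 10.8 in the unnamed neurons. The NP1-like level was 41.8 times the level of all other neurons (27.8 to 65.6). The ratio was 20.2 with doublets kept and 17.5 with the 10 genes in the clustering. It was 13.5 when the shallow NP1-like sub-cluster, which also held Mrgprd, was counted among the other neurons. NP1-like nuclei held 84.6% of all Mrgprd UMIs of the nuclei analysed. The gene lies on chromosome 7 (chr7:145314835-145324086, plus strand). The 5.98 of NF-like nuclei rested on 3 UMIs, and it was 2.0 without the nucleus that held 2 of them. The groups below NP1-like nuclei, from NF-like at 5.98 down to the Agtr1b cluster with 0 UMIs (a limit of 7.68), had intervals that included a ratio of 1 between neighbours. At 2000 UMIs, 24.6% of NP1-like nuclei held a Mrgprd UMI (44 of 179, interval 18.5% to 31.6%), against 0.629% of satellite glia. The other 90 NP1-like nuclei were too shallow to be thinned, and at all UMIs the share was 46.5%. Mrgprd was therefore sparse even in its own class: the nuclei that held it had a median of 2 UMIs and the highest had 9.

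Lpar3, a receptor for lysophosphatidic acid, was also highest in NP1-like nuclei, at 314 CPM (754 UMIs), which was 26.7 times the other neurons (21.5 to 33.6). That ratio was 16.8 with doublets kept and 16.0 with the 10 genes in the clustering. It was 13.5 when the shallow sub-cluster, which also held Lpar3, was counted among the other neurons. Cold-like nuclei came next at 59.8, but 19 of their 50 Lpar3 UMIs lay in 1 nucleus, and the level without it was 37.8. At 2000 UMIs, Lpar3 was found in 39.7% of NP1-like nuclei, 11.0% of cold-like nuclei (5.62% to 18.8%) and 2.52% of satellite glia. At all UMIs, 63.6% of NP1-like nuclei and 2.58% of satellite glia held it. Cold-like nuclei thus stood above the satellite glia share at matched depth, while PEP-like (1.2%) and cLTMR-like nuclei (1.0%) lay below it. All 8 Lpar3 UMIs of the Col7a1 cluster came from 1 nucleus. Its relative Lpar5, which also responds to lysophosphatidic acid, was called in NP1-like nuclei too, at 8.74 CPM and 16.9 times the other neurons. Lpar5 was, however, one of the markers that named the class. It had 21 UMIs in NP1-like nuclei and reached the UMI minimum only through the class where it was called.

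P2rx3, the ATP-gated channel of nociceptors, was the broadest of the 3. Its level was 292 CPM in NP1-like nuclei, 171 in the Agtr1b cluster, 115 in NP3-like, 111 in cLTMR-like, 44.4 in PEP-like, 43.3 in the Col7a1 cluster (27.2 without 1 nucleus) and 9.97 in NF-like nuclei. In cold-like nuclei 0 UMIs were found, which allows up to 3.59 CPM. NP1-like nuclei stood 1.7 times above the Agtr1b cluster (1.32 to 2.22), and the Agtr1b cluster 1.49 times above NP3-like nuclei (1.1 to 2.02). NP3-like and cLTMR-like nuclei (ratio 1.03, 0.815 to 1.3) and PEP-like nuclei and the Col7a1 cluster (1.03, 0.622 to 1.78) could not be ordered. In the Col7a1 cluster 1 nucleus held 8 of 19 UMIs, and the level without it was 27.2. At 2000 UMIs the shares were 48.6% in NP1-like, 32.1% in Agtr1b, 20% in NP3-like, 19.0% in cLTMR-like and 7.19% in PEP-like nuclei, against 1.08% in satellite glia and 0 of 100 cold-like nuclei, which allows a share of up to 3.0%. At all UMIs the NP1-like share was 61.0%. Measured against all other neurons, the NP1-like level was 4.14 times higher (3.7 to 4.64), close to the threshold of 4. P2rx2, whose subunit can join P2rx3 in one channel, had a different order: it was called in NP3-like nuclei at 49.5 CPM and stood at 0.832 in NP1-like nuclei. The P2rx3 gene (chr2:84998583-85037462, minus strand) overlaps exons of Ssrp1 on the opposite strand at its start, and the sources used here do not say whether counting used strand.

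The NP1-like class joined a deep sub-cluster of 147 nuclei (median 13283 UMIs) and a shallow one of 122 (median 1120). Lpar3 stood at 313 CPM in the deep and 321 in the shallow sub-cluster, and Mrgprd at 129 (114 to 145) and 176 (131 to 230). P2rx3 was lower in the shallow sub-cluster, at 199 (152 to 257) against 305 (282 to 330). The shallow sub-cluster had 2480 CPM of satellite glia markers against 723 in the deep one, and the part of those transcripts in its values was not tested. In single NP1-like nuclei thinned to 2000 UMIs, 8 of 179 held all of Mrgprd, Lpar3 and P2rx3, 52 held 2 of them, 74 held 1 and 45 held none. Mrgprd and Lpar3 met in 21 nuclei, where the product of their shares gives 17.5. Lpar3 and P2rx3 met in 38, against 34.5 from the product, and Mrgprd and P2rx3 in 17, against 21.4. Detection at this depth was limiting: with all UMIs, 82 of the 147 deep NP1-like nuclei held all 3 genes, and Mrgprd, Lpar3 and P2rx3 were found in 67.3%, 85.7% and 91.2% of them.

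**Figure D2:**
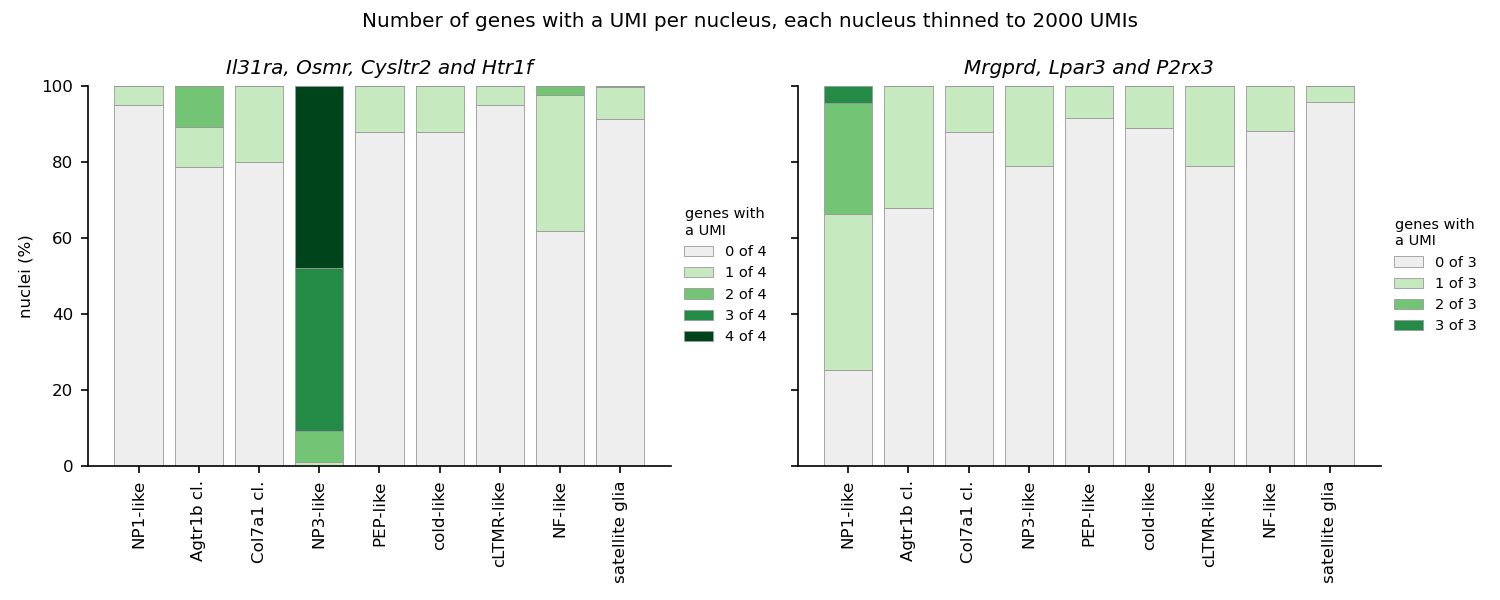
Percentage of nuclei in each class, thinned to 2000 UMIs, that held a UMI of 0, 1, 2 or more genes of the interleukin, leukotriene and serotonin receptor group (left) and of the Mrgprd group (right). In NP3-like nuclei 48.0% held all 4 genes on the left, and in NP1-like nuclei 4.47% held all 3 genes on the right.

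Mrgpra3, Mrgprb4 and Mrgprx1 belong, with Mrgprd, to the Mas-related G protein-coupled receptors, several of which are near copies of each other in a cluster on mouse chromosome 7. Mrgpra3 is known as the chloroquine receptor of itch neurons, Mrgprx1 responds to peptides cut from proenkephalin, and Mrgprb4 marks neurons that respond to stroking of the skin. In the GENCODE M21 annotation (GRCm38), Mrgpra3 spans chr7:47588950-47601372, Mrgprx1 chr7:48020971-48027597 and Mrgprb4 chr7:48198070-48199288, all on the minus strand. The coding sequences of the 4 Mas-related genes followed here were 61.0% to 68.5% identical in pairs, and their longest shared runs were 11 to 17 bases. Mrgpra3 and its neighbour Mrgpra4, chosen here after values were seen, were far closer, with 88.6% identity over 930 aligned bases and a longest shared run of 76 bases. The windows below run over coding bases 159 to 308 of Mrgpra3 and 102 to 251 of Mrgpra4. They are shown because a read that lies wholly within the shared run of 76 bases cannot be assigned to either gene. Capitals mark the 12 bases that differ.
Mrgpra3: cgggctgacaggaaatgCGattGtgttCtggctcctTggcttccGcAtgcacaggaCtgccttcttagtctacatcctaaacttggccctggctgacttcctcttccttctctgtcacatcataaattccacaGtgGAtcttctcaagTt
Mrgpra4: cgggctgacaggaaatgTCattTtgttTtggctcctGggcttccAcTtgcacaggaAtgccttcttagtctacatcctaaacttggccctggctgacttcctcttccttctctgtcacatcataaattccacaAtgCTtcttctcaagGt
Of all 50-base words of the Mrgpra3 transcript, 7.14% also occur in another gene, most of them in Mrgpra4. Mrgprx1 shares 5.84% of its words, most with Gm18348, which had 0 UMIs in neurons, and Mrgprb4 shares 1.45%. Mrgpra4 had 14 UMIs over all neurons against 113 of Mrgpra3. The sources used here do not say how reads that fit both genes were counted, so any such reads leave a part of the Mrgpra3 counts uncertain.

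Mrgpra3 was high in both small clusters, at 164 CPM in the Agtr1b cluster (64 UMIs) and 57.0 in the Col7a1 cluster (25 UMIs), and at 2.61 or below in every named class. The Agtr1b level was 2.87 times the Col7a1 level (1.78 to 4.76). The Col7a1 level was 21.9 times that of NP3-like nuclei, the highest of the named classes (6.67 to 113). The unnamed neurons stood at 10.8. Without the nucleus that held most Mrgpra3, the Agtr1b level was 141. At 2000 UMIs, 25.0% of Agtr1b nuclei (10.7% to 44.9%) and 28% of Col7a1 nuclei (12.1% to 49.4%) held a UMI, against 0.36% of satellite glia, but these shares come from 1 random draw. The shares expected over all draws at that depth were 21.1% and 14.4%, and the drawn shares were 17.2% and 3.85% at 1000 UMIs, 45.8% and 21.7% at 4000 and 70.0% and 44.4% at 8000. The Agtr1b share was the higher at 1000, 4000 and 8000 UMIs, with intervals that overlapped at each of the 4 depths. At all UMIs the shares were 56.7% and 61.5%, with the Col7a1 nuclei deeper. The nuclei with Mrgpra3 had a median of 3 UMIs in the Agtr1b cluster and 1 in the Col7a1 cluster, and 4 Agtr1b nuclei but 0 Col7a1 nuclei held 5 or more.

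Mrgprb4 was found only in the Col7a1 cluster among all nuclei analysed, with 8 UMIs in 7 nuclei and 18.2 CPM (7.88 to 36.0). Set against 3 UMIs, the limit that 0 UMIs allows, in all neurons outside the Agtr1b and Col7a1 clusters, the level in the 2 clusters together was 30.0-fold higher. This value leaves out the counting error of the 8 UMIs and is not a lower limit. In the Agtr1b cluster 0 UMIs were found, which allows up to 7.68 CPM. At 2000 UMIs only 1 of 25 Col7a1 nuclei (4.0%) kept a Mrgprb4 UMI, against 26.9% at all UMIs. The whole library, before filtering, held 10 Mrgprb4 UMIs in 9 barcodes. All 7 nuclei with Mrgprb4 also held Mrgpra3 and Mrgprx1 at all UMIs, as against 16 and 20 of all 26 Col7a1 nuclei. The 7 nuclei had 15493 to 42255 UMIs, with a median of 16718 in the cluster. The part of depth in this overlap was not tested.

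Mrgprx1 was spread more widely than the other Mas-related genes. It stood at 220 CPM in the Agtr1b cluster, 171 in the Col7a1 cluster, 103 in NP3-like, 35.0 in PEP-like, 21.6 in NP1-like and 3.99 in NF-like nuclei. The 2 small clusters could not be ordered (ratio 1.29, 0.933 to 1.78). The Col7a1 cluster stood 1.67 times above NP3-like nuclei (1.23 to 2.25), and NP3-like nuclei 2.93 times above PEP-like nuclei (2.17 to 3.98). However, 1 Col7a1 nucleus held 15 of the 75 UMIs of that cluster, and the level without it was 143. In cold-like nuclei 0 UMIs were found, a limit of 3.59. At 2000 UMIs the shares were 28.6%, 28%, 20%, 8.38% and 5.03% in Agtr1b, Col7a1, NP3-like, PEP-like and NP1-like nuclei, against 0.27% in satellite glia, so that all 5 groups stood above the background share. At all UMIs the shares of the Agtr1b cluster, the Col7a1 cluster and NP3-like nuclei were 70.0%, 76.9% and 48.6%. Within the PEP-like class the level differed between its 3 sub-clusters, at 59.8, 34.7 and 10.3 CPM. In NP3-like nuclei, the 54 nuclei with Mrgprx1 at all UMIs all held Il31ra and Htr1f as well. Nearly the whole class did so, with Il31ra in 105 and Htr1f in 109 of its 111 nuclei.

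**Figure D3:**
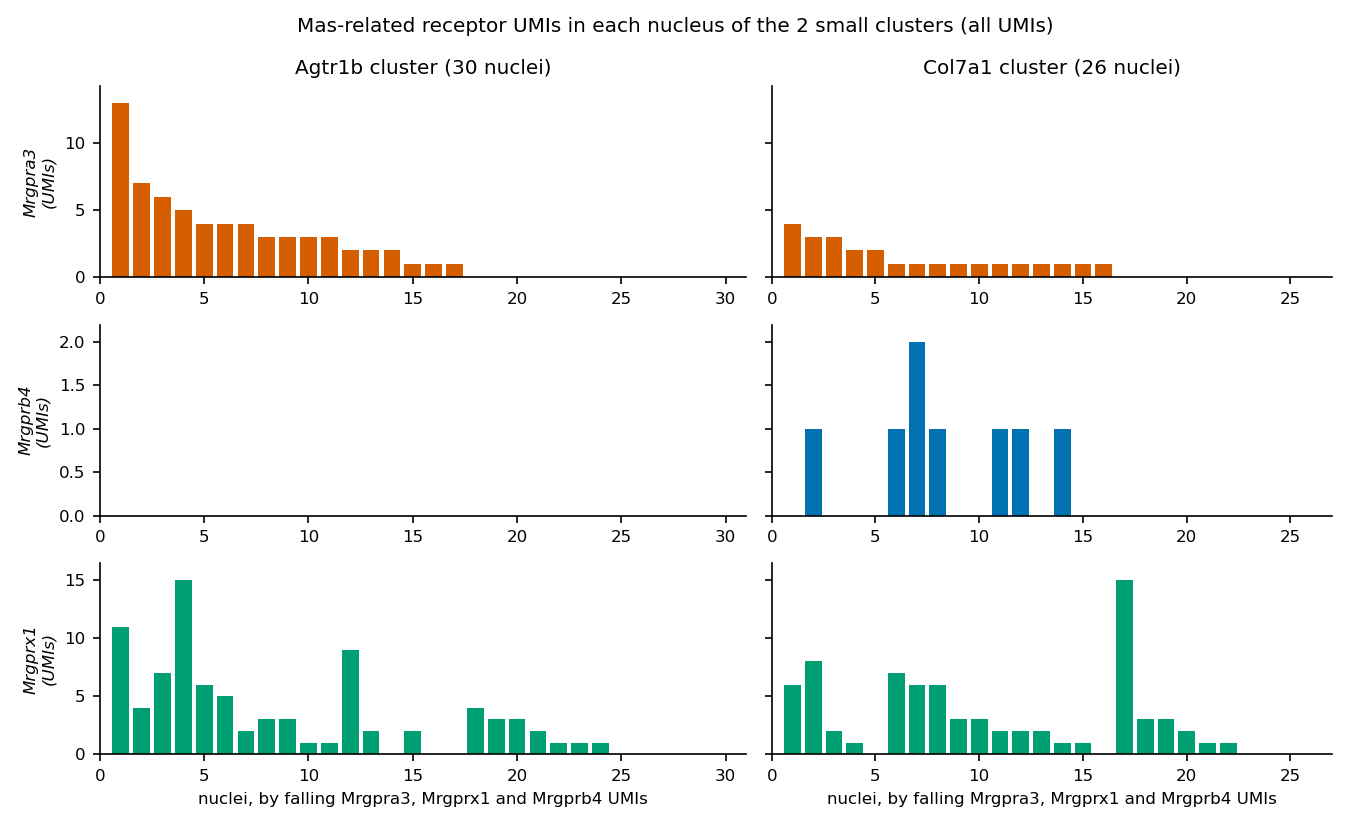
UMIs of Mrgpra3, Mrgprb4 and Mrgprx1 in each nucleus of the Agtr1b cluster (30 nuclei) and the Col7a1 cluster (26 nuclei), at all UMIs, with nuclei in the same order in each column. Mrgpra3 was found in 17 and 16 nuclei, Mrgprx1 in 21 and 20, and Mrgprb4 in 7 nuclei of the Col7a1 cluster only.

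Nucleus by nucleus, 14 of the 30 Agtr1b nuclei held both Mrgpra3 and Mrgprx1, 3 held Mrgpra3 without Mrgprx1, 7 the reverse and 6 neither. In the Col7a1 cluster, 7 of 26 nuclei held Mrgpra3, Mrgprb4 and Mrgprx1, 6 held Mrgpra3 and Mrgprx1, and 3 held none of the Mas-related genes followed here. Mrgprd and Mrgpra3 met in 5 of the 1161 neurons at all UMIs, where the product of their shares gives 7.01, and in none of 811 at 2000 UMIs. At that depth only 51 neurons held Mrgprd and 19 held Mrgpra3, too few to show whether the genes avoid each other. Of 14 listed relatives, 5 had enough UMIs and all 5 were called in some class, against 14.2% of all genes tested. Mas1 was called in NF-like nuclei (21.9 CPM), where none of the 10 receptor genes was. Mrgpra2b stood at 901 CPM in the Col7a1 cluster, 732 in the Agtr1b cluster, 412 in NP3-like and 295 in NP1-like nuclei, and Mrgpra1 at 97.3 in the Agtr1b cluster. Mrgprb5 was called in NP1-like nuclei, at 14.6 CPM from 35 of its 36 UMIs, so it reached the UMI minimum only through the class where it was called. Mrgpra1, Mrgpra2b, Mrgprb5 and Hrh1 were among the NP2 markers that scored the clusters, and reads of Mrgpra1, Mrgpra2a and Mrgpra2b may be shared among these related genes. Hrh1, the histamine receptor of itch, was highest in the Agtr1b cluster at 69.1 CPM, with 33.9 in NP3-like and 9.12 in Col7a1 nuclei.

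Il31ra and Osmr are the chains of the receptor for the itch cytokine interleukin 31, which signals through the kinase Jak1. Osmr also pairs with Il6st to bind oncostatin M. Cysltr2 is a receptor for cysteinyl leukotrienes, and Htr1f is an inhibitory serotonin receptor that is a target of migraine drugs. The genes lie apart, Il31ra at chr13:112519898-112594360, Osmr at chr15:6813577-6874969, Cysltr2 at chr14:73025603-73049114 and Htr1f at chr16:64924729-65105854, all on the minus strand of GRCm38. Since these 4 genes were high in the same nuclei, the 250 bases before the start of each are shown, taken from RefSeq on GRCm38.p6 (Il31ra chr13:112580663-112580912, Osmr chr15:6874314-6874563, Cysltr2 chr14:73049115-73049364, Htr1f chr16:65105785-65106034) and read 5′ to 3′ on the minus strand. Capitals mark the only match to a STAT-type site.
Il31ra: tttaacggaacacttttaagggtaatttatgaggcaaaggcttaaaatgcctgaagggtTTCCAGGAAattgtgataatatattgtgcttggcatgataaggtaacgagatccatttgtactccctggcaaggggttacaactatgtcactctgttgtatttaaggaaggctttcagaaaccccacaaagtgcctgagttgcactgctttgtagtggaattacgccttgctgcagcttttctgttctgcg
Osmr: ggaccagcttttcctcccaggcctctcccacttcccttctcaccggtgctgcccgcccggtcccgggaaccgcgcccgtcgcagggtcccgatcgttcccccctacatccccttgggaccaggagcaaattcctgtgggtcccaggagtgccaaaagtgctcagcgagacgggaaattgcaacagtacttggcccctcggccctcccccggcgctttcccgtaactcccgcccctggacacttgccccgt
Cysltr2: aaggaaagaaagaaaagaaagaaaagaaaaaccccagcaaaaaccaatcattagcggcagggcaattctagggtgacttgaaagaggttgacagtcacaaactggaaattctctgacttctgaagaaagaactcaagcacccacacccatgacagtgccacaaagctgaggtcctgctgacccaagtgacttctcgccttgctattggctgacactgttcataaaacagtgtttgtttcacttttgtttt
Htr1f: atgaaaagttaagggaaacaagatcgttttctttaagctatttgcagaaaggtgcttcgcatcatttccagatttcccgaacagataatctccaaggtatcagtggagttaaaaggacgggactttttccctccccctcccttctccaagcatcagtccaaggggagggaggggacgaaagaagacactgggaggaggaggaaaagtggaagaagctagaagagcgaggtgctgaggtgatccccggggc
The RefSeq starts of Il31ra, Osmr and Htr1f lie inside the longer GENCODE genes. The windows of Il31ra and Osmr fall wholly inside the gene, and that of Htr1f in part. The 5′ end of the GENCODE Il31ra gene overlaps the pseudogene Gm3226 on the same strand. The 8 receptor genes with a RefSeq promoter entry were searched on both strands. The STAT-type site TTCNNNGAA occurred in 1 of 8, as TTCCAGGAA 191 to 183 bases before the Il31ra start, against 7.0% of 32851 promoters. The RUNX core was counted where a promoter held TGTGGT. The same motif was also counted in the variant spelled TGCGGT. Either form occurred in 0 of 8, against 18.6%. The TATA box TATAAA occurred in 1 of 8 (Mrgprb4), against 12.4%. These are matches of letters in a window and say nothing about binding.

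Il31ra stood at 2460 CPM in NP3-like nuclei (2827 UMIs), which was 59.5 times the level of other neurons (53.4 to 66.5). Every other named class or small cluster lay at or below 35.9, the value of cold-like nuclei, of whose 30 UMIs 10 came from 1 nucleus. The unnamed neurons stood at 333 (277 UMIs). A nucleus of the NP3-like class held a median of 20 Il31ra UMIs, with a range from 0 to 98. At 2000 UMIs, 96.0% of NP3-like nuclei held Il31ra (90.1% to 98.9%), against 4.14% of satellite glia. In this draw, the shares in all other named neuron classes and both small clusters, from 0 to 3.57%, lay below the satellite glia share. The shares expected over all draws were 5.37% in cold-like nuclei, 4.35% in the Agtr1b cluster and 3.59% in satellite glia. The Col7a1 cluster and NP1-like, PEP-like, cLTMR-like and NF-like nuclei were expected below satellite glia. At 4000 UMIs the drawn shares of cold-like, Agtr1b and satellite glia nuclei were 6.67%, 8.33% and 5.07%. The cold-like level was 1.92 times that of satellite glia (1.23 to 2.92), and without the nucleus with 10 UMIs it was 24.2 CPM against 18.7.

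Osmr reached 542 CPM in NP3-like nuclei (624 UMIs), 24.6 times the other neurons (20.9 to 29.0). The Agtr1b cluster followed at 115 and the Col7a1 cluster at 43.3, but a single nucleus of each held 14 of its 45 and 9 of its 19 UMIs, and the levels without that nucleus were 83.0 and 24.7. PEP-like nuclei stood at 18.4, with 12 of 39 UMIs in 1 nucleus, and cLTMR-like nuclei at 0. At 2000 UMIs the shares were 67.0% in NP3-like, 17.9% in Agtr1b (6.06% to 36.9%) and 2.99% in PEP-like nuclei, against 0.899% in satellite glia. Osmr was also found outside neurons: endothelial nuclei held 205 CPM (61 UMIs) and a share of 22.8% at 2000 UMIs.

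Both chains of the interleukin 31 receptor were found in 64 of 100 NP3-like nuclei at 2000 UMIs (53.8% to 73.4%), where the product of their shares gives 64.3. The pair plus Jak1 was found in 58 of 100 (47.7% to 67.8%), and at all UMIs in 97 of 111. Jak1 itself was called in NP3-like nuclei, at 1500 CPM and 13.4 times the other neurons. Among the named classes and small clusters, the Agtr1b cluster was next highest at 297. No nucleus of any other named neuron class or small cluster held both chains at 2000 UMIs, but 6 of 70 unnamed neurons and 2 of 57 endothelial nuclei did. At all UMIs both chains were found in 3 Agtr1b, 3 Col7a1, 4 PEP-like, 3 endothelial and 4 satellite glia nuclei. Over all 811 neurons at that depth, 81.4% of those with Osmr also held Il31ra, and 59.8% of those with Il31ra held Osmr. The partner chains of oncostatin M and related cytokines were not restricted in this way: Il6st was highest in the Agtr1b cluster (269 CPM), with 134 in NP3-like nuclei, and Lifr stood at 784 in NP1-like and 701 in NP3-like nuclei. Neither Il6st nor Lifr was called in any class. Of 16 listed cytokine receptor and signalling genes, 13 had enough UMIs and 4 were called: Jak1 and Socs3 in NP3-like, Il13ra1 in cold-like and Il1rap in cLTMR-like nuclei. Socs3, an inhibitor induced by such receptors, was sparse at 10.4 CPM from 12 UMIs.

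Cysltr2 stood at 754 CPM in NP3-like nuclei (867 UMIs), 37.9 times the other neurons (32.3 to 44.8), with a median of 6 and at most 26 UMIs per nucleus. Among the named classes and small clusters, the Col7a1 cluster was next at 36.5, and the rest lay between 1.89 and 12.8. The unnamed neurons stood at 149 (124 UMIs). The 12.8 of the Agtr1b cluster was 5.35 without the nucleus that held 3 of its 5 UMIs. At 2000 UMIs the share was 77.0% in NP3-like and 12.0% in Col7a1 nuclei (2.55% to 31.2%), against 0.809% in satellite glia. Its relative Cysltr1 had 3 UMIs over all neurons, below the number needed for a call.

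Htr1f stood at 7050 CPM in NP3-like nuclei (8106 UMIs), 45.9 times the other neurons (43.4 to 48.6), and a nucleus held a median of 61 and at most 260 UMIs. Among the named classes and small clusters, NF-like nuclei were next at 369 (185 UMIs), 19.1 times lower (16.5 to 22.2). The unnamed neurons stood higher, at 1190 (989 UMIs). The NF-like share at 2000 UMIs was 35.7% (21.6% to 52.0%) against 98.0% in NP3-like nuclei and 3.15% in satellite glia. NF-like nuclei thus stood above the satellite glia share for Htr1f. They also had the highest level of satellite glia markers of the named classes, whose part in this value was not tested. The Agtr1b value of 125 rested on 1 nucleus with 38 of 49 UMIs, and the level without it was 29.4. That nucleus also held 14 Osmr and 3 Cysltr2 UMIs. The NP1-like level of 30.0 fell to 17.5, and the satellite glia level of 29.3 to 16.6, without the nucleus that held most. Of 12 other serotonin receptor genes, 9 had enough UMIs and 8 were called, in 6 different classes or clusters: among them Htr2a in NP3-like nuclei (58.2 CPM, itself an NP3 marker), Htr4 in NP1-like nuclei (577), Htr1b in PEP-like nuclei (54.8) and both Htr1d and Htr7 in NF-like nuclei (89.7 each). Htr1b had 116 UMIs in PEP-like nuclei and 16 in the other neurons. It reached the UMI minimum only through the class where it was called. Htr1a had 10 UMIs over neurons.

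**Figure D4:**
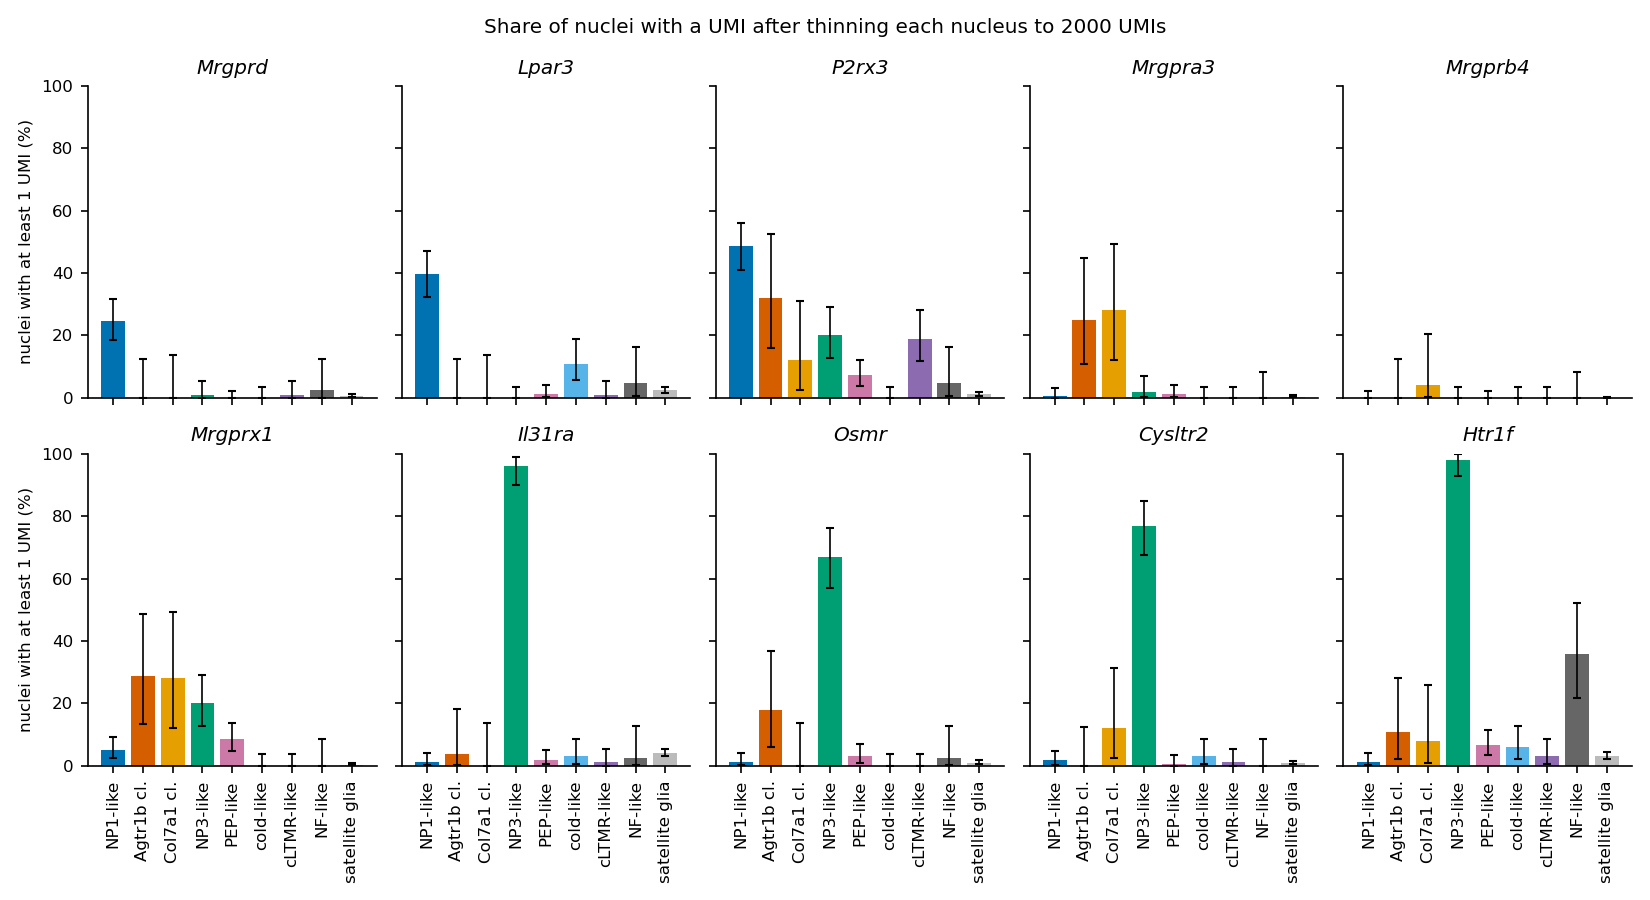
Percentage of nuclei with at least 1 UMI of each receptor gene after every nucleus was thinned to 2000 UMIs, by class, with exact 95% Clopper-Pearson intervals as bars. In NP3-like nuclei Il31ra, Osmr, Cysltr2 and Htr1f were found in 96.0%, 67.0%, 77.0% and 98.0%, and in satellite glia none of the 10 genes passed 4.14%.

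The 4 genes met in the same NP3-like nuclei. At 2000 UMIs, 48 of 100 held all of Il31ra, Osmr, Cysltr2 and Htr1f, 43 held 3, 8 held 2 and 1 held 1, and at all UMIs 94 of 111 held all 4. Thinning left out 11 of the 111 nuclei, and before it Il31ra, Osmr, Cysltr2 and Htr1f were found in 94.6%, 89.2%, 94.6% and 98.2% of the class, against 3.66%, 1.75%, 1.12% and 3.57% of satellite glia. Among 1112 satellite glia at 2000 UMIs, 3 held 2 of the genes and none held more. Within the class the pairs occurred about as often as the product of their shares gives, for example 52 nuclei with Osmr and Cysltr2 against 51.6 and 75 with Il31ra and Cysltr2 against 73.9. Nppb or Sst, the peptides that name the class, were found in only 47 of 111 NP3-like nuclei at all UMIs (42.3%; 26 with Nppb, 34 with Sst, 13 with both), and these were deeper, with a median of 12793 UMIs against 7754.5. The receptor levels of nuclei with and without a peptide UMI were close: Il31ra 2550 and 2360 CPM, Osmr 537 and 549, Cysltr2 718 and 793, and Htr1f 7270 and 6800. An unnamed neuron cluster of 36 nuclei had 2620 CPM of satellite glia markers and also held Il31ra (619), Htr1f (2210), Cysltr2 (290) and Osmr (169). Only some of its nuclei held these UMIs: 9 held Il31ra, 10 Htr1f, 8 Cysltr2 and 7 Osmr. In this cluster 7 nuclei held both Il31ra and Osmr, and it is counted in none of the named classes.

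When neurons, thinned to 2000 UMIs in a separate draw, were sorted by 1 transcript instead of by cluster, most nuclei fell outside every gate. Of 811 neurons, 482 held no UMI of Mrgprd, Mrgpra3, Mrgprb4, Nppb, Sst, Tac1, Trpm8 or Th, 276 fell in 1 such gate and 53 in several. Among 38 nuclei in the Mrgprd gate alone, Lpar3 and P2rx3 were each found in 31.6%. Among 25 in the Nppb or Sst gate alone, Il31ra and Htr1f were each found in 56%, Cysltr2 in 44.0% and Osmr in 32.0%. Among 15 in the Mrgpra3 or Mrgprb4 gate alone, Mrgprx1 was found in 13.3% (1.66% to 40.5%), no more often than Osmr, Cysltr2 or P2rx3 (20% each). The 126 nuclei of the Tac1 gate held Il31ra in 11.9% and Mrgprx1 in 8.73%, the 28 of the Th gate held P2rx3 in 17.9%, and the 44 of the Trpm8 gate held 0 Lpar3 and 0 P2rx3, which each allow a share of up to 6.82%. The Il31ra share of the Tac1 gate stood above the 1.8% of PEP-like nuclei, but the gate is not that class. At all UMIs, Tac1 was found in 77.8% of PEP-like nuclei and in 37.5% of the other neurons.

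The counts of called genes in the other lists are read beside the 14.2% of all genes tested that were called in at least 1 class, and several of the called genes were markers that named a class. Of 24 listed histamine, protease, bradykinin, endothelin and lipid mediator receptors, 13 had enough UMIs and 7 were called. Hrh2 (53.9 CPM) and Ptafr (43.5), the receptor of platelet-activating factor and an NP3 marker, were called in NP3-like nuclei. Ptafr, with 50 UMIs there, reached the UMI minimum only through the class where it was called. Of 9 lysophospholipid genes, 7 had enough UMIs and 2 were called, Lpar5 in NP1-like nuclei and S1pr1, a sphingosine phosphate receptor, in NP3-like nuclei (120 CPM, 19.0 times the other neurons). Of 13 purine receptors, 8 had enough UMIs and 3 were called, with P2rx2 in NP3-like, P2ry1 in cLTMR-like and P2rx6 in NF-like nuclei. Of 13 transmitter and peptide genes, 11 had enough UMIs and 5 were called, and 3 of the 5 were Nts (46.1), Sst (47.8) and Nppb (33.0) in NP3-like nuclei, all of them markers of that class. Among the listed transduction genes and channels, Trpv1, the capsaicin receptor, was called in cold-like nuclei (1740). Of 13 fate factors, 11 had enough UMIs and 3 were called, while Runx1, a factor known to control several of these receptor genes, was highest in NP1-like nuclei at 702 without reaching the threshold.

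Genes with patterns most like those of the receptors were ranked by Pearson's r of log2(CPM + 10) over the 15 neuron sub-clusters of this 1 library, among 12504 candidates. The sub-clusters share library and free RNA, and r is given as a description. Prkcq (0.966), Hal (0.947) and Mdfic2 (0.942) were most like Mrgprd, and Hal (0.898), Prkcq (0.896) and A230004M16Rik (0.895) most like Lpar3. Slc35b3 (0.892), Cct6b (0.847) and Lrrc8c (0.836) were most like P2rx3. Tmprss11c (0.897), Cmah (0.891) and Gda (0.874) were most like Mrgpra3, and Gm45682 (0.945), Mrgpra2a (0.932) and Ston2 (0.879) most like Mrgprx1. Ptafr was among the first 3 for Il31ra (0.952), Cysltr2 (0.916) and Htr1f (0.877). The others were Hmga2 (0.947) and Gm40538 (0.93) for Il31ra, Slc12a4 (0.951) and Mrps28 (0.913) for Cysltr2, and Ptprk (0.926) and Gm525 (0.867) for Htr1f. Osmr had a different set, Ttll6 (0.906), Gm20139 (0.904) and Capn9 (0.899). Mrgprb4 had too few UMIs to be ranked.

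Sciatic nerve holds the axons of these neurons and the cells around them but no neuronal cell bodies, and its 5 libraries give the level of the same genes outside the ganglion. Mrgpra3, Mrgprb4 and Mrgprx1 had 0 UMIs in all 5, in libraries of 60763221 to 101441907 UMIs that allow at most 0.0494 CPM, against 6.96, 0.48 and 23.2 CPM in the whole ganglion library. Mrgprd lay between 0.168 and 3.24 CPM in nerve against 20.2 in the ganglion, P2rx3 between 0.0591 and 0.459 against 67.3, Lpar3 between 0.556 and 2.82 against 48.7, and Il31ra between 0.897 and 4.92 against 175. Htr1f stood at 1.11 at P0, 0.0789 at P7, 0.0463 at P14 and 0 UMIs at P28 and P60, against 503 in the ganglion. Osmr was the exception: it stood at 3.77, 5.65, 56.5, 36.8 and 39.6 CPM at P0, P7, P14, P28 and P60, so the P14 nerve value was near the 55.4 of the P14 ganglion. Cysltr2 was at 0.0301 and 0.0197 at P0 and P7 and at 0.926, 0.411 and 0.955 at P14, P28 and P60. In whole libraries a change in the number of cells of a type and a change in RNA per cell cannot be told apart, the libraries were cells and the ganglion nuclei, and each age was 1 library. Cell Ranger also differed, with 7.1.0 for the ganglion, 7.0.0 for P7 and 5.0.1 for the other ages. The part of the version in these values was not tested.

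**Figure D5:**
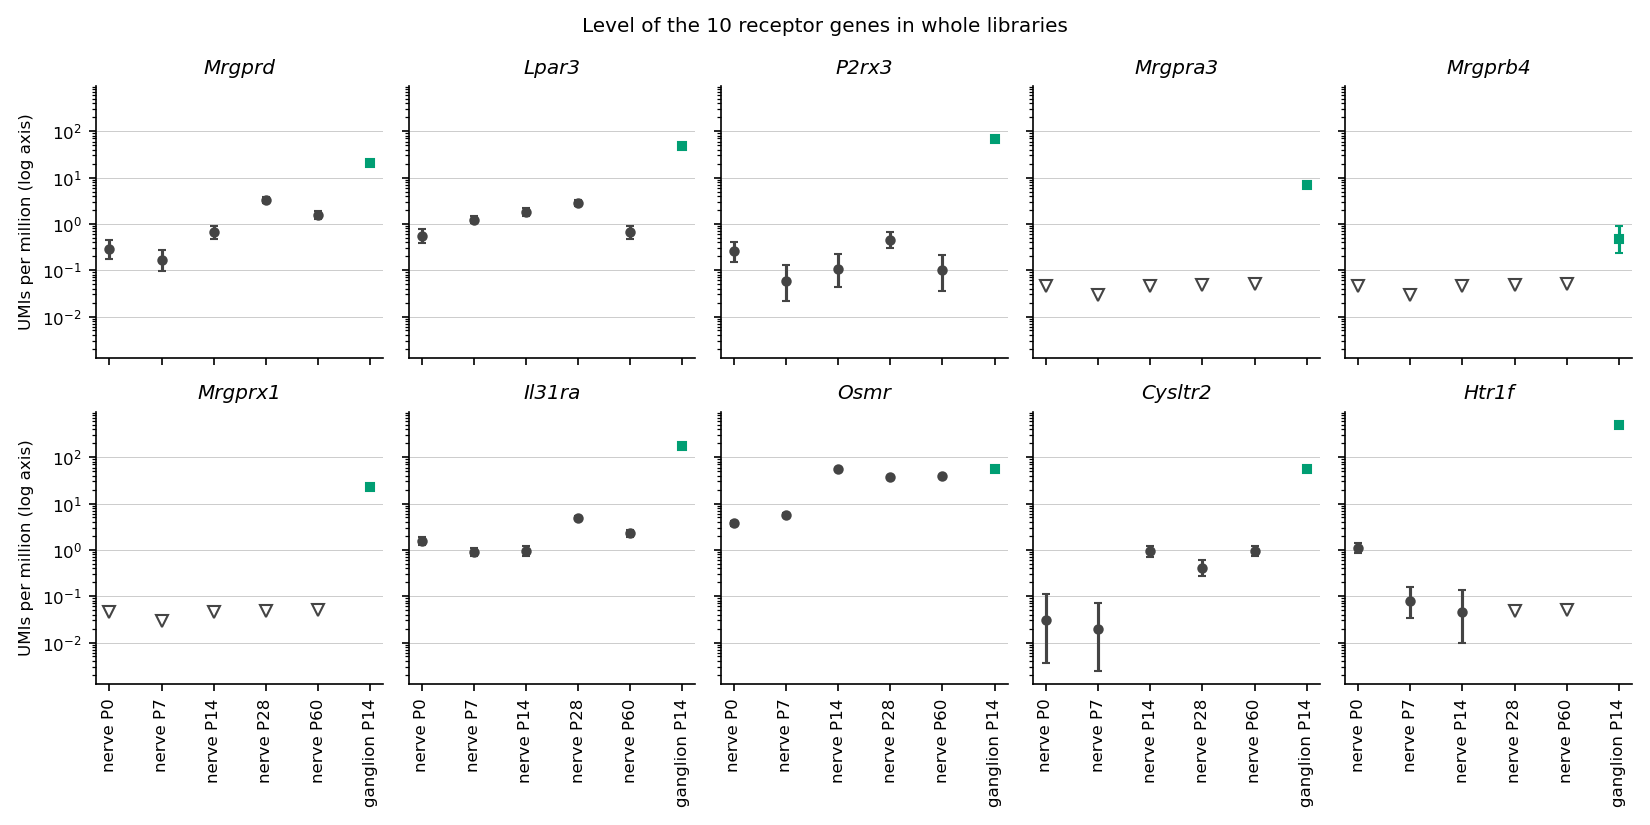
Level of each receptor gene in the 5 whole sciatic nerve libraries (circles) and the whole ganglion library (square), in CPM on a log axis, with exact 95% Poisson intervals as bars and open triangles at the limit that 0 UMIs allows. Osmr at P14 stood at 56.5 in nerve and 55.4 in ganglion, and every other gene was higher in the ganglion than in each nerve library.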

How the data were processed

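Enzymatic dissociation, dead-cell removal and droplet libraries are described once for all samples in the labels' protocols, which give no separate step for nuclei. The deposited files hold UMI counts per gene and barcode, made by the authors with Cell Ranger 7.1.0 for the ganglion, 7.0.0 for P7 and 5.0.1 for the other nerve libraries, per the file headers. The submitters' processing notes name Seurat and the build mm9, whereas 94.08% of the gene identifiers, with all 10 receptor genes, match GENCODE M21 on GRCm38, the source of the coordinates given. Inclusion of intronic reads is not given in the sources used here. Ganglion barcodes needed 300 genes, 500 UMIs and at most 5% mitochondrial UMIs (5786 of 5871). Scrublet called 0 doublets, so the 8% of barcodes with the highest scores, 513 with ties (8.87%), were removed instead. Nuclei were clustered with scanpy 1.11.5 (2000 variable genes, 30 components, Leiden resolution 1, without the 10 genes) and named from summed markers; the naming thresholds were set after the clusters were seen. Levels are CPM, UMIs of the gene per 1000000 UMIs of the class, with exact Poisson intervals. Ratios have exact conditional intervals and shares exact Clopper-Pearson intervals (scipy 1.17.1), and 0 UMIs are given the limit of 3. Thinning drew UMIs without replacement. Calling was checked on simulated counts. Named genes are the 10 receptors, the 3 genes most like each, up to 4 leading genes of each list and known partners or relatives; Agtr1b, Col7a1, Gm18348, Gm3226, Ssrp1, Mrgpra4, Mrgpra1, Htr2a, and Runx1 were added after values were seen. The genes and lists were chosen with earlier results of these data known. Alternatives were other depths, filters, doublets kept, resolutions of 0.5 and 1.5, clustering with the 10 genes, median-of-ratios scaling and other call rules. The tally of the list of transduction genes is not reported here.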

Additional observations from a re-analysis of the deposited data

How the results depend on the processing

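No paired analysis was possible because every group is 1 library. Depth and the detection rule both moved shares: both chains of the interleukin 31 receptor were found in 64.0% of NP3-like nuclei at 2000 UMIs, 35.0% at 1000, 84.8% at 4000, 93.8% at 8000 (a depth added after seeing the data) and 20% when 2 UMIs of each were required. The NP1-like class held 269 nuclei, but 157 when the 10 genes entered the clustering. It held 147 when its shallow sub-cluster was counted among the other neurons, an alternative also added after seeing the data. The ratio to other neurons then fell for Mrgprd from 41.8 to 17.5 and 13.5 and for Lpar3 from 26.7 to 16.0 and 13.5, and with doublets kept it was 20.2 and 16.8. Over 7 alternatives the ratios ranged from 54.4 to 59.8 for Il31ra, 22.5 to 24.6 for Osmr, 34.7 to 39.1 for Cysltr2, 39.9 to 45.9 for Htr1f and 4.01 to 4.56 for P2rx3, and for both small clusters together from 41.6 to 52.8 for Mrgpra3 and 6.35 to 6.92 for Mrgprx1. A ratio threshold of 2 instead of 4 raised the genes called in NP1-like nuclei from 214 to 815 and in NP3-like nuclei from 292 to 1346, and no UMI minimum to 1465 and 1556. No ratio reversed, and the number of receptor genes called per class stayed within 1.5 times its main value in each alternative. Median-of-ratios scaling shifted the median gene's log2 ratio by 0.12 in NP1-like, -0.14 in NP3-like and 0.11 in cLTMR-like nuclei. Levels without the nucleus holding most of a gene, also added later, are given beside several of the results they change. Depth limits Mrgprb4 (8 UMIs) most.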
